A study of Mus musculus with 4 samples.

Results

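The mitochondrial genome of the mouse carries 37 genes, and their transcripts were compared in splenic B cells with and without NSD1, a methyltransferase for lysine 36 of histone H3. The 37 genes were chosen by symbol, as every gene of the count tables whose symbol starts with mt-, out of 55401 genes listed. They comprise 13 mRNAs, 2 rRNAs and 22 tRNAs, and the 37 are also all genes that GENCODE M21 places on the mitochondrial genome. The mRNAs were grouped by the respiratory complex of their protein, with 7 in complex I, 1 in complex III, 3 in complex IV and 2 in complex V.

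The 4 libraries were made from RNA of sorted splenic B220+ B cells, 2 of them labelled NSD1B WT and 2 labelled NSD1B KO. NSD1B KO mice were Mb1-Cre+ NSD1fl/fl, with exons 6 to 8 of Nsd1 flanked by loxP sites, and NSD1B WT mice were Mb1-Cre+ NSD1+/+ littermates, so both genotypes carried the Cre driven from the Cd79a locus, which is active in the B lineage from early stages in the bone marrow. All mice were on the C57BL/6J background, and the study's methods give 7 to 9 weeks of age and both sexes for its experiments. Nothing in the sources used here says whether the 2 libraries of a genotype came from separate mice, so p-values measure only the spread between these libraries, which may be technical.

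Mitochondrial DNA is a small circle transcribed from both strands as long precursors by a single nuclear-encoded RNA polymerase, and most of the mRNAs and rRNAs are released when the tRNAs between them are cut out. One strand encodes the rRNAs, all but 1 of the mRNAs and most of the tRNAs. The other encodes mt-Nd6 and 8 tRNAs. The proteins are core subunits of complex I (NADH dehydrogenase), complex III (cytochrome bc1), complex IV (cytochrome c oxidase) and complex V (ATP synthase), and all other subunits come from the nucleus. Resting B cells depend in part on oxidative phosphorylation, and copies of mitochondrial sequence inserted in nuclear chromosomes are a known difficulty in counting these transcripts.

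The sequences that matter most for reading the counts are those that mitochondrial genes share with nuclear chromosomes or with each other. They were taken from the GENCODE M21 transcripts of GRCm38 (mm10) and are written in the sense direction. A stretch of 4663 bases on chromosome 1 (chr1:24611535-24616197, minus strand) holds 7 annotated pseudogenes in the order of their mitochondrial counterparts from mt-Co1 to mt-Nd4. The copies of mt-Co2, mt-Atp6, mt-Co3 and mt-Nd4l were identical to the mitochondrial gene over the aligned bases, as was the copy of mt-Nd4 over its first 876 bases. The copies of mt-Co1 and mt-Nd3 each differed by a single base, shown here in capitals within 60 bases of each.
mt-Co1 (chrM:6390-6449, plus strand): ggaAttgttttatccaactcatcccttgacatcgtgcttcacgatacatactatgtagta
Gm29216 (chr1:24616129-24616188, minus strand): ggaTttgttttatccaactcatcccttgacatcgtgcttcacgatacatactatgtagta
mt-Nd3 (chrM:9459-9518, plus strand): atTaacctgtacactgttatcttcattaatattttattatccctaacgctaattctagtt
Gm28438 (chr1:24613060-24613119, minus strand): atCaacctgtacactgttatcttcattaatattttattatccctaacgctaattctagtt
Copies on chromosome 2 were less alike. Gm13340 differed from mt-Co1 at 37 of 1545 bases, and the 60 bases with the most differences hold 4, again in capitals.
mt-Co1 (chrM:5787-5846, plus strand): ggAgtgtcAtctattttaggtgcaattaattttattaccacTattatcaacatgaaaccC
Gm13340 (chr2:22589129-22589188, minus strand): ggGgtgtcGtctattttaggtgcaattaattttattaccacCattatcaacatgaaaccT

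Some mitochondrial genes also overlap each other, and a read within an overlap cannot be given to one gene by position alone. The end of mt-Atp8 shares 43 bases with the start of mt-Atp6 on the same strand, and the shared bases are in capitals.
mt-Atp8 (chrM:7907-7969, plus strand): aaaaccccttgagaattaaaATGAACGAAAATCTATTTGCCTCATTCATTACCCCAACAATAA
The ends of mt-Nd5 and mt-Nd6 overlap by 14 bases on opposite strands, and the capitals mark these bases, which are the reverse complement of each other.
mt-Nd5 (chrM:13526-13565, plus strand): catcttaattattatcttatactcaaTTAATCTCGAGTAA
mt-Nd6 (chrM:13552-13591, minus strand): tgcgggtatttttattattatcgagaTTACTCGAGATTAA
The tRNA genes mt-Tq, mt-Ts1 and mt-Tp, the tRNAs whose increase held whichever library was left out, are shown whole, with the bases that overlap a neighbouring gene on the other strand in capitals.
mt-Tq (chrM:3772-3842, minus strand): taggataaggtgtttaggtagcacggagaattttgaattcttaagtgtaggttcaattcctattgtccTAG
mt-Ts1 (chrM:6870-6938, minus strand): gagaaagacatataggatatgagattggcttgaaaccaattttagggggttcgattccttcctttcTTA
mt-Tp (chrM:15356-15422, minus strand): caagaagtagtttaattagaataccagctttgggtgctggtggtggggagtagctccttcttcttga
The overlap of mt-Tq is with mt-Ti and that of mt-Ts1 with mt-Co1, each of 3 bases, while mt-Tp overlaps no gene. Each of these tRNA genes is shorter than a sequenced read of 150 bases.

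Counts on genes ranged from 6769118 to 7566834 per library. Nsd1 itself had 497 and 480 counts in NSD1B WT and 284 and 280 in NSD1B KO, a fall by 0.74 on the log2 scale (± 0.11 SE, edgeR adjusted p = 8.08e-08), and the counts are per gene, so they do not separate the deleted exons. All 8 B cell markers examined were detected in every library, and their summed level was 50434 and 50320 CPM (counts scaled by library size times the TMM factor) in NSD1B WT against 41350 and 40663 CPM in NSD1B KO. Most of this sum was Cd74, at 37627 and 37737 CPM in NSD1B WT and 29251 and 29556 CPM in NSD1B KO. Of the 8 markers, 6 were called as lower and 0 as higher, beside 41.1% and 37.1% of all tested genes. Their log2 fold changes ran from -3.29 for Pax5 to 0.26 for Cd79b, which was not called. Cd74, Pax5 and Cd79b were named after their values were seen. The 6 erythroid and platelet markers that could be tested all increased, and their summed level rose from 194 and 202 CPM to 2168 and 1921 CPM, with Ppbp at 0 in every library. The summed level of the 8 myeloid markers rose from 4604 and 4707 CPM to 6147 and 5798 CPM, with 2 of the 8 at 0 in each library, 5 of 7 tested called as higher and 2 as lower, beside 37.1% and 41.1% of all tested genes. Most of that sum was Lyz2, a lysozyme gene, at 4446 and 4537 CPM in NSD1B WT and 5891 and 5542 CPM in NSD1B KO. Csf1r, the receptor of a macrophage growth factor, had 3.22 and 3.69 CPM against 52.1 and 49.8 CPM. The 2 called as lower were Itgam (log2 fold change -0.80) and S100a8, with 39 and 28 counts in NSD1B WT and none in NSD1B KO. These myeloid genes were named after their values were seen. The part of red cell and myeloid RNA in the mitochondrial values was not tested. The summed level of the 9 T and NK cell markers was 83.1 and 84.0 CPM in NSD1B WT and 132 and 129 CPM in NSD1B KO, with Cd4, Cd8a and Ncr1 at 0. Of 4 tested, 3 were higher (Cd3d, Cd3g and Nkg7) and 1 lower, beside 37.1% and 41.1% of all tested genes. The lower gene was Klrb1c, with 26 and 21 counts in NSD1B WT and none in NSD1B KO. Cd3e and Cd8b1 had too few counts to be tested.

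Differences between the genotypes were frequent across the whole transcriptome. Of 11657 genes tested, 37.1% were higher and 41.1% lower in NSD1B KO, where a call required a fold change over 1.2 and an adjusted p under 0.05 here and throughout, and the median log2 fold change of all tested genes was -0.10. Within the tested genes, 168 had no count in NSD1B WT and at least 100 in each NSD1B KO library, and 275 showed the opposite pattern. The same kind of zero stands behind every fold given below as at least a value. How the authors' tables came to hold these zeros is not given in the sources used here and was not tested, so such folds describe the tables. In each fit that left out 1 library, the genotype with a single library was assumed to vary like the other. A call on a single mitochondrial gene is read against that background.

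Mitochondrial transcripts took up a larger share of the counts in NSD1B KO than in NSD1B WT. The 37 genes held 7.14% (95% Wilson interval 7.12 to 7.16) and 7.90% (7.88 to 7.92) of the counts on genes in the NSD1B WT libraries, and 8.98% (8.96 to 9.0) and 9.27% (9.25 to 9.29) in the NSD1B KO libraries. The mean was thus 7.52% ± 0.536 (SD, n = 2) in NSD1B WT and 9.13% ± 0.207 (SD, n = 2) in NSD1B KO, and the libraries of the genotypes did not overlap. The intervals cover counting error only, and with 2 libraries against 2 an exact permutation test cannot give a two-sided p below 0.333. After scaling, the summed level was 1.28 times higher in NSD1B KO, and in bulk RNA more mitochondrial RNA per cell cannot be told apart from more cells with a high content.

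The summed level of each of the 3 kinds of transcript was higher in NSD1B KO. The difference between the sums was not tested, and the test of each gene relative to the mRNAs, given further on, called neither rRNA and 2 of 8 tRNAs. The 13 mRNAs took 5.71% ± 0.475 of the counts in NSD1B WT and 6.69% ± 0.165 in NSD1B KO (mean ± SD, n = 2 each), and their summed level was 1.24 times higher. The 2 rRNAs took 1.79% ± 0.061 and 2.40% ± 0.041, with a summed level 1.41 times higher. The 22 tRNAs held far less, 0.0222% ± 0.0009 and 0.0309% ± 0.0020, and were 1.47 times higher in sum. Expressed against the mRNAs, the rRNAs stood at 32.6% and 30.4% in NSD1B WT and at 36.1% and 35.7% in NSD1B KO.

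Among the 37 genes, 26 had at least 1 count and 23 had enough counts to be tested, namely all mRNAs and rRNAs and 8 tRNAs. Of those 23, 13 were higher in NSD1B KO (5 mRNAs, 2 rRNAs and 6 tRNAs) and none was lower by the edgeR test, with 10 not called. Over all tested genes 37.1% were called as higher and 41.1% as lower, 78.2% in all.

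**Figure D1:**
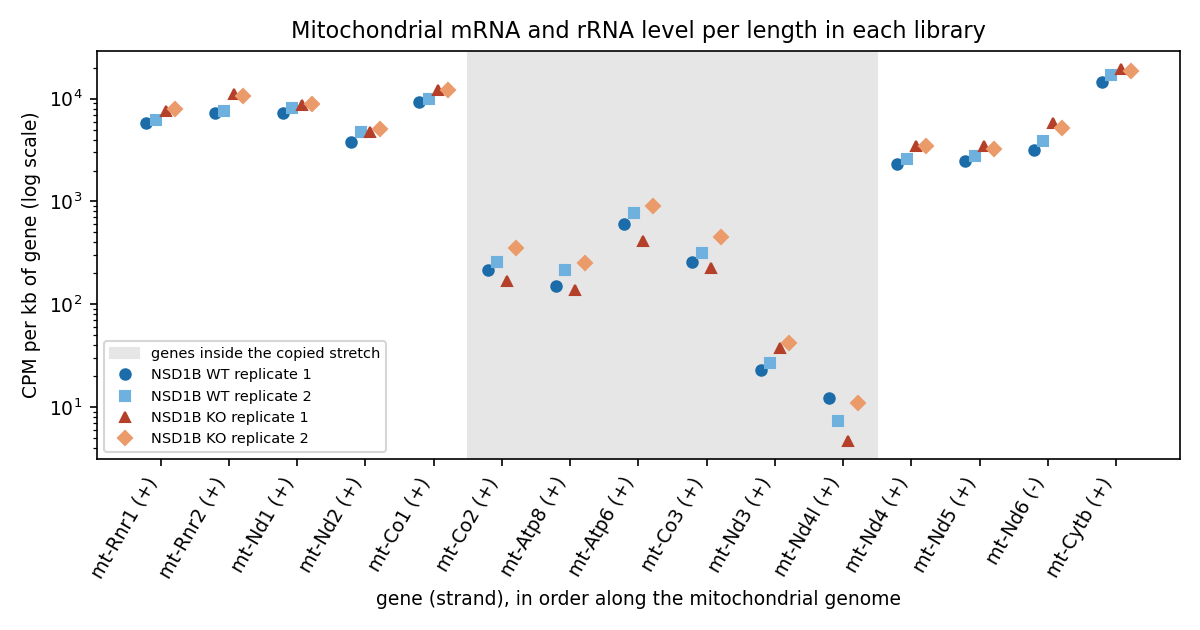
CPM per kb of gene on a log axis for the 13 mRNAs and 2 rRNAs in genome order, with 1 point per library and the strand of the gene in brackets. The 6 genes inside the copied stretch (grey) lie between 4.68 and 895 CPM per kb, and the other 9 genes between 2312 and 19326 CPM per kb.

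Both rRNAs, the RNA components of the small and large subunits of the mitochondrial ribosome, were increased in NSD1B KO. For mt-Rnr1, the 12S rRNA (chrM:70-1024), the counts were 39428 and 42912 in NSD1B WT and 52289 and 51432 in NSD1B KO. It rose 1.31-fold (log2 fold change 0.39 ± 0.08 SE, adjusted p = 9.49e-06). The 16S rRNA mt-Rnr2 (chrM:1094-2675) had 82329 and 88142 counts in NSD1B WT against 127505 and 113285 in NSD1B KO, and rose 1.47-fold (0.55 ± 0.08, adjusted p = 9.86e-09). Neither gene overlapped between the genotypes. The annotated nuclear gene Gm20594, on chromosome 6, shares a run of 65 identical bases with mt-Rnr2, and had 122 and 142 counts in NSD1B WT and 107 and 241 in NSD1B KO, far fewer than mt-Rnr2. For mt-Rnr1 no stretch of 50 bases was found whole in another annotated transcript. With the trend of the fold changes with gene length and GC content removed, mt-Rnr2 stayed called at 0.27, while mt-Rnr1 at 0.20 did not reach the fold limit.

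Complex I, which passes electrons from NADH into the chain, had 7 mRNAs, of which 4 rose and 3 were not called. The largest counts were those of mt-Nd1, which helps to form the quinone site, with 50111 and 56555 in NSD1B WT and 60137 and 57061 in NSD1B KO. The libraries of the genotypes lay close to each other, and the log2 fold change of 0.19 ± 0.08 (adjusted p = 0.0209) was under the fold limit of 1.2. Likewise mt-Nd2, a subunit of the proton-pumping membrane arm, had 28195 and 35591 counts against 35738 and 35791. Here NSD1B WT replicate 1 was the library that stood apart, and the log2 fold change of 0.22 ± 0.08 (adjusted p = 0.0118) was also under the limit.

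Other membrane arm subunits rose further. mt-Nd4 had 22763 and 26117 counts in NSD1B WT and 34145 and 31995 in NSD1B KO, a log2 fold change of 0.49 ± 0.08 (adjusted p = 1.24e-07). mt-Nd5 had 32420 and 36589 against 45942 and 39772, a log2 fold change of 0.37 ± 0.08 (adjusted p = 3.22e-05). In both genes each NSD1B KO library was above each NSD1B WT library.

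mt-Nd6, the only mRNA read from the other strand, had the most pronounced increase among the abundant mRNAs. Its counts were 11875 and 14736 in NSD1B WT and 21520 and 18210 in NSD1B KO, without overlap. The fold change was 1.55 (log2 0.63 ± 0.08, adjusted p = 1.40e-09). It also kept its call after removal of the length and GC trend, at 0.50.

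The remaining complex I mRNAs were scarce in these tables. mt-Nd3 had 57 and 68 counts in NSD1B WT and 94 and 97 in NSD1B KO (log2 fold change 0.67 ± 0.23, adjusted p = 0.00861), and lost its call without NSD1B WT replicate 1 (adjusted p = 0.0651). mt-Nd4l had 26 and 16 counts against 10 and 22, with overlapping libraries and no call (-0.33 ± 0.44, adjusted p = 0.493). Both genes lie inside the copied stretch.

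The single complex III mRNA, mt-Cytb, encodes cytochrome b and had the highest level per length of all 13. Its 119297 and 141758 counts in NSD1B WT and 159091 and 142562 in NSD1B KO were nearly equal between NSD1B WT replicate 2 and NSD1B KO replicate 2. After scaling the log2 fold change was 0.26 ± 0.08 (adjusted p = 0.00268), at the limit of 0.263 and not past it.

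Complex IV passes electrons to oxygen, and its catalytic core subunits are encoded by mt-Co1, mt-Co2 and mt-Co3. Only mt-Co1 of these 3 was called, with 102965 and 112364 counts in NSD1B WT and 136433 and 126785 in NSD1B KO (0.34 ± 0.08, adjusted p = 7.59e-05). mt-Co2 had far fewer counts than mt-Co1, at 1053 and 1281 against 824 and 1636 (0.15 ± 0.14, adjusted p = 0.342). mt-Co3 gave 1441 and 1821 against 1265 and 2370 (0.23 ± 0.13, adjusted p = 0.117). For both, one NSD1B KO library was the lowest and the other the highest of the 4.

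The 2 mRNAs of complex V, which makes ATP, behaved in the same way. mt-Atp6 had 2939 and 3800 counts in NSD1B WT and 2023 and 4100 in NSD1B KO (-0.07 ± 0.14, adjusted p = 0.674). mt-Atp8 had 220 and 319 against 202 and 348 (0.09 ± 0.17, adjusted p = 0.608). Neither was called, and the NSD1B KO libraries lay on either side of both NSD1B WT libraries.

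Over the 13 mRNAs the median log2 fold change was 0.23, with a range from -0.33 to 0.67 and 11 of 13 above 0, beside a median of -0.10 for all tested genes. In 8 mRNAs both NSD1B KO libraries were above both NSD1B WT libraries after scaling, and in 5 the genotypes overlapped, where 41.8% of all tested genes showed the first pattern. Removing the trend with length and GC content, which moved the median of all genes by 0.12, left 2 mRNAs called as higher, mt-Nd3 at 0.53 and mt-Nd6 at 0.50, while mt-Nd4 (0.23), mt-Co1 (0.13) and mt-Nd5 (0.08) were no longer called. The background share of higher genes in that fit was 38.9%.

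**Figure D2:**
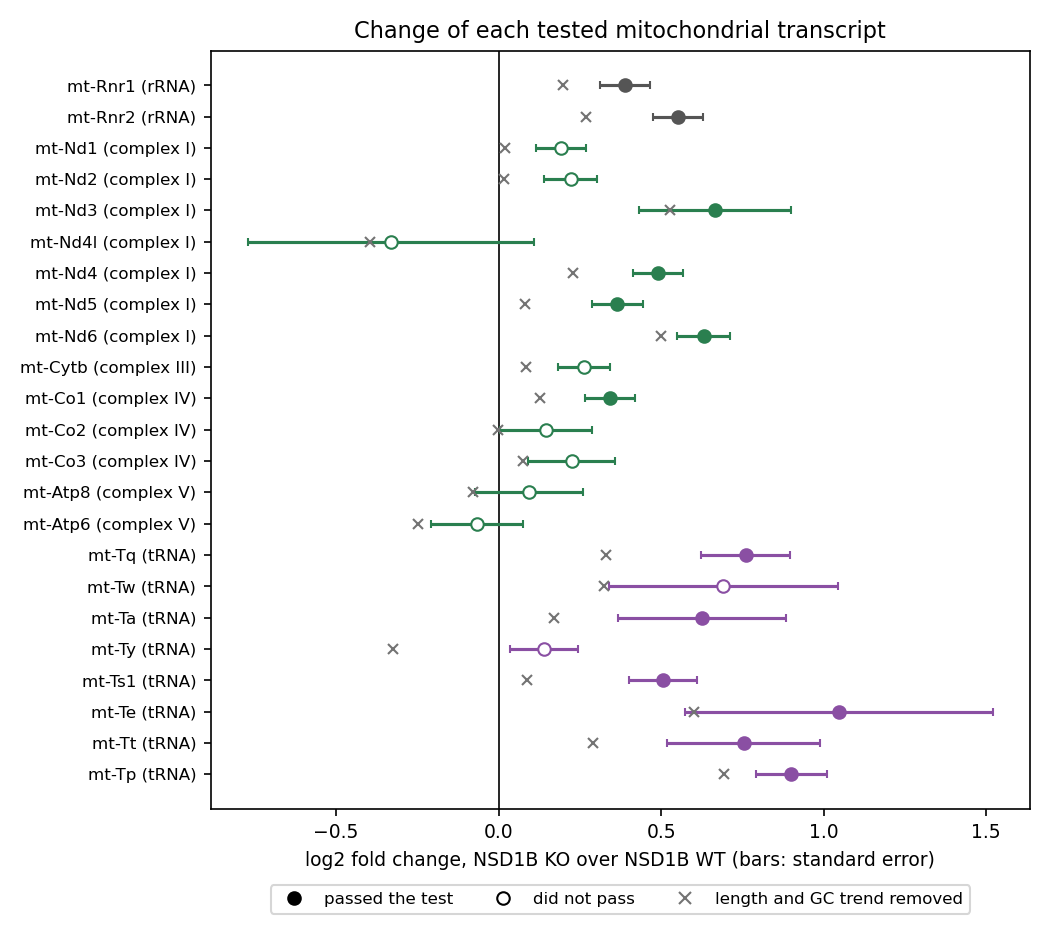
Log2 fold change of NSD1B KO over NSD1B WT for the 23 tested mitochondrial genes, with the standard error as bars; filled points passed the test and open points did not, and crosses give the value with the length and GC trend removed. Apart from mt-Nd4l at -0.33 and mt-Atp6 at -0.07, all points lie above 0, and most crosses lie nearer to 0.

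The mRNAs inside the copied stretch of chromosome 1 stood apart in level and, with the exception of mt-Nd3, in the spread between the NSD1B KO libraries. They are mt-Co2, mt-Atp8, mt-Atp6, mt-Co3, mt-Nd3 and mt-Nd4l. mt-Atp8 starts in the gap between mt-Co2 and mt-Atp6 and shares its last 43 bases with mt-Atp6. Measured from the last base of mt-Co2 that aligned to its copy, that gap is 233 bases, and it is 233 bases between the pseudogenes as well. Of all possible stretches of 150 bases within a gene, the share also found in an annotated nuclear transcript was 99.4% for mt-Co2 and mt-Atp6, 99.8% for mt-Co3, 98.0% for mt-Nd4l and 97.0% for mt-Nd3. It was 59.2% for mt-Nd4, 23.6% for mt-Co1 and 0% for the other genes, including mt-Atp8, for which no pseudogene is annotated.

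Taken as a sum, the 6 mRNAs inside the stretch amounted to 1.56% and 1.72% of the other 7 mRNAs in NSD1B WT, and to 0.896% and 1.90% in NSD1B KO. NSD1B KO replicate 1 was thus the lowest of the 4 libraries and NSD1B KO replicate 2 the highest. The 7 other mRNAs differed little between these 2 libraries, with a summed level of 68514 and 67215 CPM. The ratio of NSD1B KO replicate 2 to replicate 1 was 2.12 for mt-Co2, 2.17 for mt-Atp6 and 2.0 for mt-Co3, but 1.10 for mt-Nd3.

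**Figure D3:**
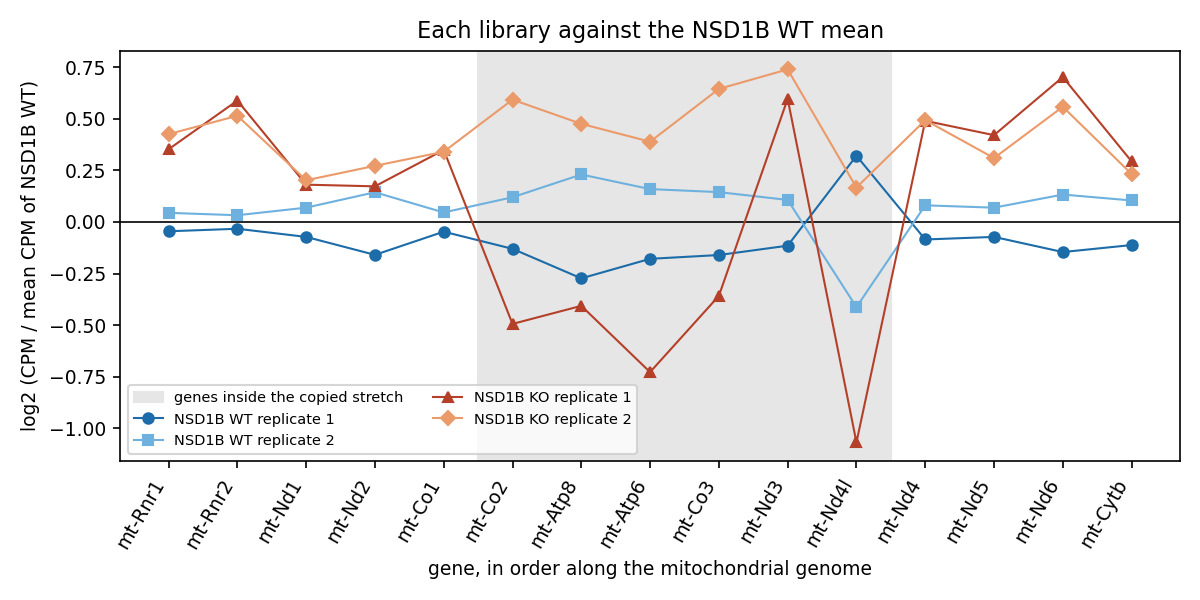
Log2 of the CPM of each library over the mean CPM of NSD1B WT, for the 15 mRNAs and rRNAs in genome order, with genes inside the copied stretch in grey. Outside the stretch both NSD1B KO libraries run together above 0, and inside it they part for all genes but mt-Nd3, with NSD1B KO replicate 1 below NSD1B WT for mt-Co2, mt-Atp8, mt-Atp6, mt-Co3 and mt-Nd4l.

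The direction of 4 of these mRNAs depended on which library was left out, in fits where NSD1B KO is a single library whose own spread is not estimated. Without NSD1B KO replicate 1, mt-Co2 (0.59), mt-Atp8 (0.47), mt-Atp6 (0.38) and mt-Co3 (0.64) were called as higher, and without NSD1B KO replicate 2 the same 4 were called as lower, at -0.49, -0.40, -0.72 and -0.35, where 41.3% of all tested genes were. The number of mRNAs called as higher also depended on which library was left out, and a genotype with a single library cannot show its own spread. The background shares of higher genes in the fits without each NSD1B KO library were 34.5% and 35.9%.

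Annotated nuclear copies also differed between the NSD1B KO libraries, to varying extents and not always as their mitochondrial gene did. For the copies in the chromosome 1 stretch the ratio of replicate 2 to replicate 1 was 1.30 for Gm28661, 1.36 for Gm28437 and 1.65 for Gm10925, below that of mt-Co2, mt-Co3 and mt-Atp6. It was 1.38 for Gm28438, the copy of mt-Nd3, and 2.12 for Gm28439, the copy of mt-Nd4, above the 1.0 of mt-Nd4 itself. Counts on the 17 annotated noncoding copies summed to 0.265% and 0.356% of the counts in NSD1B WT and to 0.242% and 0.408% in NSD1B KO. Gm13340 on chromosome 2, the copy of mt-Co1 shown above, had 3784 and 4741 counts in NSD1B WT and 2752 and 5285 in NSD1B KO. Gm10925, identical to mt-Atp6, had 4801 and 7406 against 4860 and 7487, more than mt-Atp6 itself in each library. Of 1518 genes with a mean of at least 100 CPM, 9 differed between the NSD1B KO libraries by a ratio of at least 1.5, and 8 of these were mitochondrial genes or annotated copies (mt-Co2, mt-Atp6, mt-Co3, Gm13339, Gm13340, Gm13341, Gm28439 and Gm10925), the other being Arl5c, which was named after its value was seen. Between the NSD1B WT libraries 1 gene differed as much, Gm10925.

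Some copies passed the test between genotypes. Gm28437, identical to mt-Co3, was higher in NSD1B KO with 2254 and 3047 counts against 3126 and 3978 (0.49 ± 0.10, adjusted p = 1.89e-05). Gm28661, identical to mt-Co2, was also higher (0.30 ± 0.10, adjusted p = 0.00409), though its libraries overlapped between the genotypes. Gm10222, identical to mt-Nd4l, was lower with 108 and 132 counts against 57 and 78 (-0.77 ± 0.22, adjusted p = 0.0018). Gm13339, a copy of part of mt-Nd2, was lower too (-0.29 ± 0.12, adjusted p = 0.0212), with overlapping libraries. How the authors' counting divided reads that match a mitochondrial gene and its copy is not given in the sources used here, and between 11.2% and 13.2% of the reads in these tables were set aside as not unique. Its part in the values above was not tested.

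**Figure D4:**
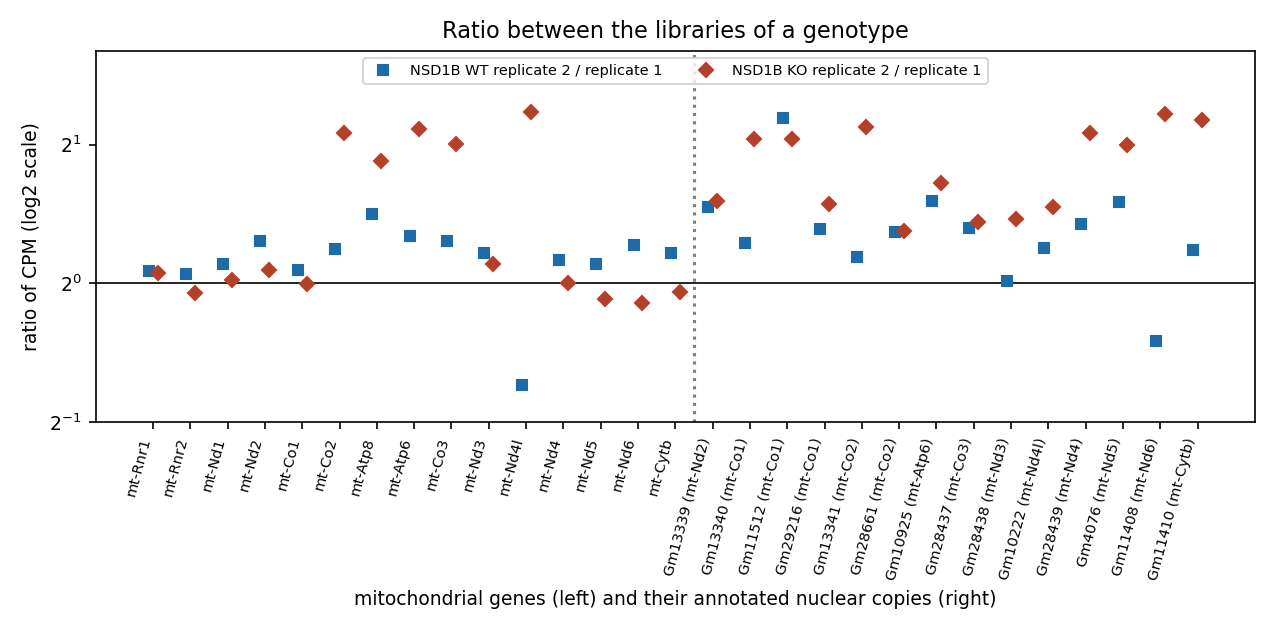
Ratio of the CPM of replicate 2 to replicate 1 within each genotype, on a log2 axis, for the 15 mRNAs and rRNAs (left of the dotted line) and the annotated nuclear copies with at least 1 CPM in NSD1B KO replicate 1 (right, with the mitochondrial gene in brackets). mt-Co2, mt-Atp6 and mt-Co3 reach 2.12, 2.17 and 2.0 in NSD1B KO, as does mt-Nd4l on few counts, while in NSD1B KO the rRNAs and the mRNAs outside the copied stretch stay near 1.

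The tRNAs carry amino acids to the mitochondrial ribosome and also punctuate the precursor. No count fell on 11 of the 22 tRNA genes in any library (mt-Tf, mt-Tv, mt-Tl1, mt-Tn, mt-Tc, mt-Tk, mt-Tg, mt-Tr, mt-Th, mt-Ts2 and mt-Tl2), which allows a level of up to 0.2075 CPM in NSD1B WT and 0.2155 CPM in NSD1B KO, taking 3 counts over the group as the limit. A further 3 had too few counts to be tested, with 1, 3, 1 and 9 counts for mt-Ti in NSD1B WT replicates 1 and 2 and NSD1B KO replicates 1 and 2, with 5, 9, 4 and 3 for mt-Tm, and with a single count in NSD1B WT replicate 2 for mt-Td. Of the 8 tested, 6 came from the minus strand, which holds 8 tRNA genes, and 2 from the plus strand, which holds 14. These 8 passed the filter on low counts and do not stand for all 22.

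Of the 8 tested tRNAs, 6 were higher in NSD1B KO and none was called as lower. The proline tRNA mt-Tp had 306 and 309 counts in NSD1B WT and 545 and 560 in NSD1B KO, a 1.87-fold rise (log2 0.90 ± 0.11, adjusted p = 2.88e-10). The glutamine tRNA mt-Tq had 194 and 179 against 321 and 288 (0.76 ± 0.14, adjusted p = 2.48e-06). The serine tRNA mt-Ts1 had 416 and 495 against 612 and 632 (0.51 ± 0.10, adjusted p = 1.96e-05). These 3 were without overlap and kept their call whichever library was left out.

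The other called tRNAs rested on fewer counts. The threonine tRNA mt-Tt, beside mt-Tp on the opposite strand, had 50 and 72 counts against 100 and 98 (0.75 ± 0.24, adjusted p = 0.00353), and lost its call without NSD1B WT replicate 1 (adjusted p = 0.0742). The alanine tRNA mt-Ta had 49 and 55 against 91 and 64 (0.63 ± 0.26, adjusted p = 0.0251), and the glutamate tRNA mt-Te had 5 and 14 against 19 and 19 (1.05 ± 0.47, adjusted p = 0.0398). Each of these 2 lost its call in 3 of the 4 fits that left out a library.

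The tyrosine tRNA mt-Ty and the tryptophan tRNA mt-Tw were not called. mt-Ty had 447 and 469 counts in NSD1B WT and 494 and 478 in NSD1B KO (0.14 ± 0.10, adjusted p = 0.209), and mt-Tw had 27 and 21 against 43 and 32 (0.69 ± 0.35, adjusted p = 0.0685). With the length and GC trend removed, only mt-Tp (0.69) and mt-Tq (0.33) remained called as higher among the tRNAs, and mt-Ty was called as lower at -0.32, the reverse of its direction above, where 37.9% of all tested genes were lower. tRNA genes lie at the short end of the gene lengths on which that trend was fitted.

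To separate the level of the whole group from differences among its members, each gene was tested relative to the summed counts of the 13 mRNAs. On that scale the median of all tested genes moved by -0.31, and 29.5% of them were higher and 48.9% lower. Among the mRNAs, mt-Nd6 was higher (0.33 ± 0.14, adjusted p = 0.0258) and mt-Atp6 lower (-0.37 ± 0.14, adjusted p = 0.0100), and the other 11 were not called. Within the mRNAs, mt-Nd6 took 3.18% and 3.42% of the counts in NSD1B WT and 4.33% and 3.95% in NSD1B KO. mt-Cytb with 30.9% to 32.9% and mt-Co1 with 26.1% to 27.6% made up most of the rest in all 4 libraries.

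Relative to the mRNAs, mt-Tp (0.59 ± 0.15, adjusted p = 1.92e-04) and mt-Tq (0.45 ± 0.18, adjusted p = 0.0148) were also higher. The rRNAs were not called on this scale, with 0.24 ± 0.15 (adjusted p = 0.127) for mt-Rnr2 and 0.08 ± 0.14 (adjusted p = 0.620) for mt-Rnr1. Of the 7 minus-strand genes tested, mt-Nd6, mt-Tq and mt-Tp were called as higher and the other 4 were not called, with mt-Ty at -0.17. Summed over the minus-strand genes, the counts were 3.68% and 3.91% of those of the 12 plus-strand mRNAs in NSD1B WT and 4.96% and 4.58% in NSD1B KO, without overlap, and mt-Nd6 made up most of that sum. The minus-strand tRNAs alone stood at 1707% and 1435% of the plus-strand tRNAs in NSD1B WT and at 1407% and 1437% in NSD1B KO, with overlap. The call on mt-Nd6 was lost without either NSD1B KO library (adjusted p = 0.391 without replicate 1 and 0.180 without replicate 2), and that on mt-Atp6 without NSD1B KO replicate 1 (adjusted p = 0.768), while mt-Tp stayed called without each library in turn. The strand setting of the counting is not given in the sources used here, so reads from the 2 strands of a locus cannot be told apart.

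The nuclear genes that make, process and modify mitochondrial RNA were examined in lists. All 9 genes of mitochondrial transcription were tested, with 8 higher and 1 lower in NSD1B KO, beside the 37.1% and 41.1% of all tested genes. Polrmt, the mitochondrial RNA polymerase, had 2 and 1 counts in NSD1B WT and 75 and 40 in NSD1B KO, a count ratio of 39.8 (95% counting interval 13.3 to 196). Tfam, which packages mitochondrial DNA and activates its promoters, rose from 549 and 466 to 1013 and 805 counts (0.89 ± 0.10, adjusted p = 4.35e-11). Tfb2m, which opens the promoter with the polymerase, rose from 97 and 124 to 349 and 325 counts (1.66 ± 0.15, adjusted p = 6.16e-14).

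Tefm, the elongation factor, was the member that fell, from 235 and 263 to 181 and 173 counts (-0.44 ± 0.15, adjusted p = 0.00576). The Mterf family, named for termination and with roles in transcription and ribosome assembly, rose as a whole. Mterf2 went from 18 and 15 counts to 348 and 317 (4.38 ± 0.22, adjusted p = 2.99e-23), and Mterf4 from 0 and 1 to 60 and 50, a count ratio of 114 (20.1 to 4552). Mterf1b (1.63), Mterf3 (1.18) and Mterf1a (0.33) completed the family.

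**Figure D5:**
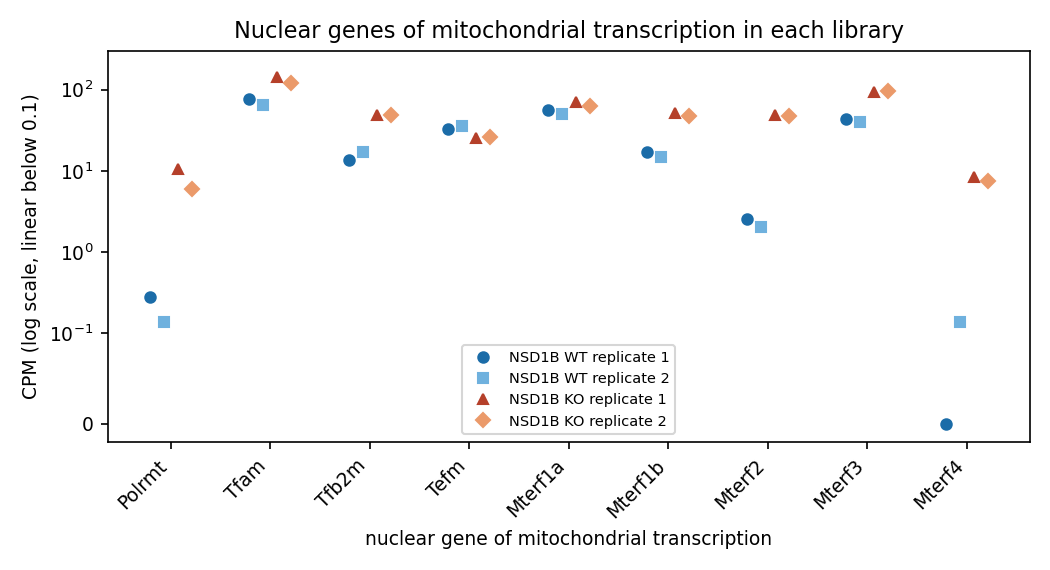
CPM in each library for the 9 nuclear genes of mitochondrial transcription, on a log axis that is linear below 0.1 so that a count of 0 can be drawn. Tefm is the gene whose NSD1B KO points lie below its NSD1B WT points, and Polrmt, Mterf2 and Mterf4 show the widest separation.

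Of 20 tested genes of mitochondrial RNA processing and stability, 6 were higher and 9 lower, shares near the background of 37.1% and 41.1%. Lrpprc, which stabilizes mitochondrial mRNAs, fell from 190 and 187 to 132 and 106 counts (-0.61 ± 0.17, adjusted p = 0.00114), while its partner Slirp, with 1499 and 1577 against 1900 and 1608, was not called (0.24 ± 0.08, adjusted p = 0.00676). Mtpap, the mitochondrial poly(A) polymerase, fell from 518 and 496 to 234 and 185 (-1.22 ± 0.12, adjusted p = 7.17e-13). Supv3l1 and Pde12, a helicase and a poly(A) nuclease, had no count in NSD1B KO and were at least 17.7-fold and 12.8-fold lower, taking 3 counts over the group as the limit. Fastkd3 (-5.57) and Fastk (-4.05) also fell, and Angel2 (4.21), Grsf1 (2.27), Fastkd2 (1.66) and Pnpt1 (1.58) rose.

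Of 16 tested genes that modify mitochondrial rRNA or take part in ribosome assembly, 6 were higher and 8 lower, beside the background of 37.1% and 41.1%. Nsun4, a methyltransferase of the ribosome that works with Mterf4, had 578 and 628 counts in NSD1B WT and none in NSD1B KO, at least 387-fold lower. Tfb1m, which methylates the 12S rRNA, went from 37 and 35 counts to none, at least 23.1-fold lower, and Trub2, a pseudouridine synthase, was at least 23.4-fold lower. Mrm1, a methyltransferase of the 16S rRNA, had none in NSD1B WT and 87 and 80 in NSD1B KO, at least 57.8-fold higher. Rpusd4 (3.41), Ybey (2.41) and Mrm3 (2.22) rose, and Noa1 went from 43 and 34 counts to 1 and 0. The counts on the 12S and 16S rRNAs rose in the same libraries, as given above.

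Of 16 tested genes of mitochondrial tRNA modification, 6 were higher and 7 lower, again near the background of 37.1% and 41.1%. Mto1, which modifies the wobble base of some tRNAs, had 385 and 379 counts in NSD1B WT and none in NSD1B KO, at least 245-fold lower, while its partner Gtpbp3 had none in NSD1B WT and 27 in each NSD1B KO library, at least 18.7-fold higher. Trmt5 went from none to 413 and 350 counts, at least 264-fold higher, and Trmu, a thiouridylase, from none to 161 and 146, at least 106-fold higher. Pus1 was at least 32.1-fold lower, Nsun2 (-3.41) and Qtrt1 (-1.88) fell, and Yrdc (3.92) rose.

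Among 13 genes that maintain mitochondrial DNA, 7 were higher and 4 lower, where 37.1% and 41.1% of all tested genes were. Polg, the catalytic subunit of the DNA polymerase, fell from 203 and 236 to 63 and 51 counts (-1.89 ± 0.19, adjusted p = 2.24e-12), and the helicase Twnk from 1150 and 1189 to 379 and 274 (-1.79 ± 0.10, adjusted p = 8.13e-21). Polg2, the accessory subunit, rose from 11 and 12 to 149 and 175 (3.86 ± 0.29, adjusted p = 1.35e-16). Rnaseh1 (-3.63) fell, Primpol was at least 57.8-fold lower, Top1mt (3.81) and Mgme1 (1.01) rose, and Atad3a was at least 14.9-fold higher. Mitochondrial DNA was not measured.

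Of 8 tested regulators of mitochondrial biogenesis, 3 were higher and 3 lower, near the 37.1% and 41.1% of all tested genes. Myc fell from 2027 and 1856 to 555 and 455 counts (-1.89 ± 0.09, adjusted p = 1.44e-23), Nrf1 from 278 and 276 to 110 and 117 (-1.23 ± 0.16, adjusted p = 9.65e-10), and Gabpb1 by 2.21 on the log2 scale. Esrra (0.71), Nfe2l2 (0.67) and Yy1 (0.57) rose.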

How the data were processed

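RNA of sorted splenic B220+ B cells was sequenced in 4 libraries, grouped by the genotype in their labels. The authors deposited raw counts per gene and library, with neither normalization nor scaling for gene length. The study's methods describe 150 bp paired-end reads mapped to mm10 with Bowtie2 and Cufflinks for FPKM, which was not used here. The sources used here do not give the library kit, the counting program, its strand setting or its annotation release. Closing lines that name no gene were left out of library sizes. Of all counted reads, 44.3% to 44.6% fell on no feature, 2.21% to 2.41% were ambiguous and 11.2% to 13.2% were not unique. Counts on genes were 6769118 to 7566834 per library, and 3 counts over a group correspond to 0.2075 CPM in NSD1B WT and 0.2155 CPM in NSD1B KO.

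Positions, types and transcript sequences came from GENCODE M21 (GRCm38), in which 55141 of 55401 identifiers were found. Genes were kept by filterByExpr (minimum count 10, minimum total 15) and scaled by TMM, and genotypes were compared by the quasi-likelihood test of edgeR 4.0.16 in R 4.3.3 on all genes kept, with Benjamini-Hochberg adjustment. SEs are those of the fitted log2 fold changes. The common biological coefficient of variation was 0.0735. A call required a fold change over 1.2 and an adjusted p under 0.05, the limits in the study's methods, which do not say that p is adjusted. A second fit set library sizes to the summed counts of the 13 mitochondrial mRNAs. Nuclear copies were annotated transcripts with a blastn 2.17.0 alignment of at least 90% identity over at least 60 bases, and exact matches of 150 and 50 bases were searched for as well. For genes with no count in a genotype, bounds used 3 counts over the group, and with 1 to 3 counts a ratio with an exact 95% interval was given. The procedure was tested on simulated data.

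Alternatives were DESeq2 1.42.0 size factors, upper quartile factors, library size alone, scaling on nuclear genes, the DESeq2 Wald test, limma-voom (limma 3.58.1), 2 other filters, a stricter call (adjusted p below 1e-05 and absolute log2 fold change above 0.5), each library left out, the replicate number as a block, and removal of the trend with length and GC content (loess span 0.5). Adding nuclear copies to their gene, and scaling to the 5 mRNAs with no near-identical copy, were chosen after seeing the data. The members, the gene lists and the tests were chosen with earlier results of these data known. Named genes are all mitochondrial genes, Nsd1, up to 4 called genes in each direction of each nuclear list of mitochondrial RNA, DNA, biogenesis and translation, Polrmt, Tfam, Tfb2m, Tefm, Lrpprc, Slirp, Mtpap, Nsun4, and nuclear copies with at least 10 counts in a library. Mterf1a, Mterf1b and Mterf3, Gm20594 and the genes named for nuclear subunits and mitochondrial mass fall outside this rule and were named after their values were seen.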

Additional observations from a re-analysis of the deposited data

How the results depend on the processing

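The increase of mt-Rnr2, mt-Nd6, mt-Tq and mt-Tp over NSD1B WT was called under each alternative run in the comparison across all genes, while the number of mRNAs called was less stable. With the stricter call 1 mRNA, 1 rRNA, 2 tRNAs and 39 genes of the nuclear lists for mitochondria were higher. Over all genes that call gave 3199 higher and 3468 lower of 11657 tested. None of the 13 mRNAs was higher or lower (0 and 0) relative to their sum with that call, where 2496 of all tested genes were higher and 4143 lower. With the length and GC trend removed, 2 mRNAs, 1 rRNA and 2 tRNAs were higher and 1 tRNA was lower, and with the replicate block as well 1 mRNA was higher and 1 lower, 1 rRNA and 2 tRNAs were higher and 1 tRNA was lower. Requiring 1 CPM in all 4 libraries gave 2855 higher and 2991 lower genes of 8334 tested. With each library left out in turn, mRNAs called as higher ranged from 4 to 11 and as lower from 0 to 4, tRNAs called as higher from 3 to 5, and mRNAs relative to their sum from 0 to 1 higher and from 0 to 5 lower. With nuclear copies added to their gene, 1 mRNA (mt-Nd4l, -0.67) was lower. The mitochondrial share was 8.0% in NSD1B WT and 9.89% in NSD1B KO without immunoglobulin genes in the total, and 7.83% and 9.45% with copies added. Directions reversed for mt-Ty (-0.32 with the trend removed, with and without the block), for mt-Co2 (-0.0025 with the trend removed, -0.044 with the block as well, and from -0.49 to 0.59 with a library left out), for mt-Atp8 (-0.079, -0.094, and from -0.40 to 0.47), for mt-Atp6 (0.063 with copies added, and from -0.72 to 0.38 with a library left out), for mt-Co3 (from -0.35 to 0.64) and for mt-Nd4l (from -1.05 to 0.16). The cause was not tested. The replicate numbers share nothing in the labels but the number, and the deviations of same-numbered libraries correlated at 0.0645 over genes; the block alone left 4254 genes higher and 4706 lower, with 6 mRNAs, 2 rRNAs and 5 tRNAs higher. At these depths 14 of 22 tRNAs had too few counts to be tested, and the cause of their low counts was not tested.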

Other observations

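The nuclear partners of the mitochondrially encoded subunits were counted by complex, beside 37.1% higher and 41.1% lower among all tested genes. For complex I, 11 of 36 nuclear subunit genes were higher and 8 lower in NSD1B KO (median log2 fold change 0.05), and for complex IV 2 of 11 were higher and 1 lower (median 0.05). Complex III had 3 higher and 4 lower of 9 (median -0.01), complex V 5 higher and 5 lower of 16 (median -0.16), and complex II, which has no mitochondrially encoded subunit, 1 higher and 3 lower of 4 (median -0.42). The summed level of the nuclear complex I genes was 11439 and 10828 CPM in NSD1B WT and 10912 and 10968 CPM in NSD1B KO, with overlap, whereas that of the 7 mitochondrial complex I mRNAs was 20354 and 23210 against 27459 and 27195 CPM, without overlap. The difference between the nuclear and the mitochondrial subunits was not tested.

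Of 11 tested genes often used as a measure of mitochondrial mass, 3 were higher and 6 lower, beside 37.1% and 41.1% of all tested genes, and the difference from that background was not tested. The import receptors Tomm20 (0.64) and Tomm22 (0.29) and the outer membrane channel Vdac2 (0.38) rose, while Vdac1 (-2.83), the chaperones Hspd1 (-1.07) and Hspa9 (-1.04), the prohibitins Phb (-0.99) and Phb2 (-1.04) and the citrate synthase gene Cs (-0.29) fell. Of 15 tested genes listed under mitochondrial translation, not all of them translation factors, 6 were higher and 5 lower, beside the same background. The elongation factor gene Tufm fell from 227 and 245 to 30 and 13 counts (-3.40 ± 0.24, edgeR adjusted p = 1.40e-17), and Tsfm, which recycles it, from 356 and 350 to 1 and 0. Taco1 was at least 51.4-fold lower, Letm1 (-1.22) fell, Mtfmt (4.41) and Guf1 (1.15) rose, and Mtrf1 and Cox18, with no count in NSD1B WT, were at least 209-fold and 55.0-fold higher. Of 5 tested plasma cell markers, 2 were higher (Prdm1 and Irf4) and 2 lower (Jchain and Xbp1), beside 37.1% and 41.1% of all tested genes. Mzb1 was not called, and Sdc1 had no count in any library.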
